A study of Mus musculus with 9 samples.

Results

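Antiviral interferon-stimulated genes are genes that cells switch on after an interferon binds its receptor, and their products bind viral RNA, cut it, tag proteins or block entry at the membrane. The members were 43 mouse genes listed by symbol. All 43 had values among the 25579 symbols of the table of homozygous and treated libraries, and 7 of them among the 1410 symbols of the table of wild-type and homozygous libraries. RNA came from the membranous labyrinth of the cochlea, the soft tissue inside the bony shell of the hearing organ, at postnatal day 28. There were 9 libraries in 3 groups of 3, described as biological replicates.

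The wild-type mice are labelled Mpzl2 WT. The homozygous mice are labelled hMPZL2Q74X/Q74X, a humanized allele with a nonsense change in MPZL2, the gene of an adhesion protein of the immunoglobulin superfamily. The treated mice carry the same alleles and had AAV-ie-ABE8eWQ-SpRY:sgRNA3 injected through the round window membrane on postnatal day 2. AAV-ie is an adeno-associated virus capsid made for the inner ear, ABE8eWQ an adenine base editor, SpRY a Cas9 variant with relaxed PAM needs, and sgRNA3 the guide. The labels name no injection in the homozygous group, so vector, editor, guide and surgery cannot be told apart here. The labels give no strain and no promoter for the editor. The design text states the purpose as a search for molecular pathways behind the cochlear damage of the allele.

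As background, type I and type III interferons act through a complex of transcription factors, IRF9 among them, that binds the interferon-stimulated response element in promoters. Interferon gamma acts mainly on another element, the gamma-activated site. Foreign nucleic acid sensed inside a cell is a known trigger of interferon release, and most cell types can respond.

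The response element is shown first, because it is the sequence by which many of these genes are known to be induced. It was searched as GAAANNGAAA, or TTTCNNTTTC on the other strand, overlapping matches counted. The windows were RefSeq promoters of GRCm38.p6, from 250 bases before to 50 bases after each start site, a build other than the GRCm39 of the deposited values. Of the 43 genes 33 had such a promoter, and 14 of these (42.4%) held the motif, against 3.99% of all 27025 genes with a promoter. The gamma-activated site, searched as TTCNNNGAA, was in 6 of the 33 (18.2%) and in 9.55% of all genes. A match is only a description of these letters. The 200 bases before the start site follow for 8 members, 5′ to 3′ on the strand of the gene, with matches to the response element in capitals. They are the 4 IFIT genes, Oas1a and Ddx60, which had the smallest p-values among carriers of the motif outside that family, and Ifitm2 and Ifitm1, which had the largest p-values.
Ifit1: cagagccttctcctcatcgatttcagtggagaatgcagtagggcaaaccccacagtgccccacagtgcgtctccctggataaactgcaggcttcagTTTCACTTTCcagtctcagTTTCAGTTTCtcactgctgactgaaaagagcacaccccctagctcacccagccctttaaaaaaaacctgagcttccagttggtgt
Ifit2: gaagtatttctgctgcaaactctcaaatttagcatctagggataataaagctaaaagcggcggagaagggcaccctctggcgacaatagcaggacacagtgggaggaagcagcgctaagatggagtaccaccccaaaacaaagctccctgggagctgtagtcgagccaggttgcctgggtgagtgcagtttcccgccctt
Ifit3: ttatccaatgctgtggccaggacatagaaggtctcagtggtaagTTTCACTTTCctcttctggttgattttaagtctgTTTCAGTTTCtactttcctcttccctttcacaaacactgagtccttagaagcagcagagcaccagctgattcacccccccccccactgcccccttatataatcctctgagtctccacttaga
Ifit3b: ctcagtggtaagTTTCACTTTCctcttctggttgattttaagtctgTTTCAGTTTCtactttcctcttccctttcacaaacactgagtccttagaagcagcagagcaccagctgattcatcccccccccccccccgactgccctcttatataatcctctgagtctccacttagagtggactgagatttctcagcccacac
Oas1a: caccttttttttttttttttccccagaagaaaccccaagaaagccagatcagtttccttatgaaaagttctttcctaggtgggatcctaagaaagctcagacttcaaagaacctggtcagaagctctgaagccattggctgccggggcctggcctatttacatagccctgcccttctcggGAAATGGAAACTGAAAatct
Ddx60: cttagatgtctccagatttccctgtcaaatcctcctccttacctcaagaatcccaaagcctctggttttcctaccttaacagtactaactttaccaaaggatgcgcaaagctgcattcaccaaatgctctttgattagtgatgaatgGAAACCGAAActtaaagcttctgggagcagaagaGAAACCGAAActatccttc
Ifitm2: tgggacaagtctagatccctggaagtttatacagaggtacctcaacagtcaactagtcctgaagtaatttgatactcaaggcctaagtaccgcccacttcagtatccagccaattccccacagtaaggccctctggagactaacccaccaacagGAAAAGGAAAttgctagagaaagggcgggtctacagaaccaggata
Ifitm1: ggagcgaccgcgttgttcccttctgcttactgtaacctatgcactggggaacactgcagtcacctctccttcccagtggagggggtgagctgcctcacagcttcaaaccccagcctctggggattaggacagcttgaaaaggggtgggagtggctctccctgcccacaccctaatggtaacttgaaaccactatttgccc

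The windows lie at chr19:34640689-34640888 (plus strand) for Ifit1, chr19:34550494-34550693 (plus) for Ifit2, chr19:34583329-34583528 (plus) for Ifit3 and chr19:34607757-34607956 (plus) for Ifit3b. Those of the others are chr5:120907526-120907725 (minus) for Oas1a, chr8:61927887-61928086 (plus) for Ddx60, chr7:140955962-140956161 (minus) for Ifitm2 and chr7:140967876-140968075 (plus) for Ifitm1, all in GRCm38.p6. Ifit1 carried the motif at positions -104 and -85 from the start site, and Ifit3 at -156 and -122. Ifit3b carried it at -188 and -154, and its window shared an unbroken run of 119 bases with that of Ifit3. In Oas1a the matches at -20 and -14 overlap. No match was in either of the 2 windows of Ifit2, nor in that of Ifitm1.

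The libraries had these properties as a whole. The depth is unknown, because the deposited TPM (transcripts per 1000000, a level per transcript length and library total) keep no read numbers. Treated library 2 was almost a copy of treated library 1. The robust SD of their log2 ratio over genes at 1 to 5 TPM was 0.0695, against 0.869 to 1.09 between homozygous libraries and 1.81 to 1.83 against treated library 3. They were therefore counted as 1 sample through their mean, and the treated group has n = 2. Mpzl2 itself was at 33.6 to 49.0 TPM in wild-type and 12.5 to 23.2 TPM in homozygous libraries of the first table. In the second table it was at 13.1 to 24.01 TPM in homozygous and at 5.64, 5.62 and 16.3 TPM in treated libraries. Defining genes of the cochlea were present in every library of the second table. Coch of the spiral ligament was at 6110 to 7698 TPM in homozygous and 3735 to 4141 TPM in treated libraries. The sums of 9 hair cell genes were 529 to 626 and 567 to 695 TPM. Myo6 weighed most in the homozygous sums and was at 307 to 367 and 176 to 224 TPM. The sums hide opposite signs, since 8 of the 9 genes had positive log2 fold changes, and limma called 0 of the 9. Mitochondrially encoded genes made up 10.7% to 13.6% of TPM in homozygous libraries, 2.17% and 2.22% in treated libraries 1 and 2 and 6.16% in treated library 3. Forebrain neuron genes also set treated libraries 1 and 2 apart, and their values stand beside the comparison of the treated libraries.

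The comparison of treated with homozygous cochleae asked what differed between injected mice and mice of the same genotype with no injection named. Of the 43 genes, 37 rose and 0 fell by limma at an adjusted p under 0.05, against 3.44% of all 17102 tested genes called higher and 0.965% called lower. All 43 passed the filter of 1 TPM in 3 libraries, and 41 had an unadjusted p under 0.05. Oas3 was under 1 TPM in every homozygous library, so it could be tested only through the treated group and had to differ. Oas1g, Oasl1 and Isg15 also passed with the help of treated libraries. Of the other 39 genes, at 1 TPM or more in every homozygous library, 34 rose, against 3.05% of all genes at that level. The median log2 fold change of all 43 was 2.54, against 0.20 over all tested genes. Of the 43 genes, 37 lay above 1.69, the 95th percentile of all tested genes. In 41 of the 43 every treated library was above every homozygous library, against 28% of all tested genes. In no member was every treated library below every homozygous library, against 14.8% of all tested genes. In 38 of the 43 the lowest treated library had more than 2 times the TPM of the highest homozygous library. Summed over the 43 genes, the homozygous libraries had 687, 1213 and 833 TPM and the treated libraries 4747, 4644 and 6295 TPM. No library of either group reached the range of the other.

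**Figure D1:**
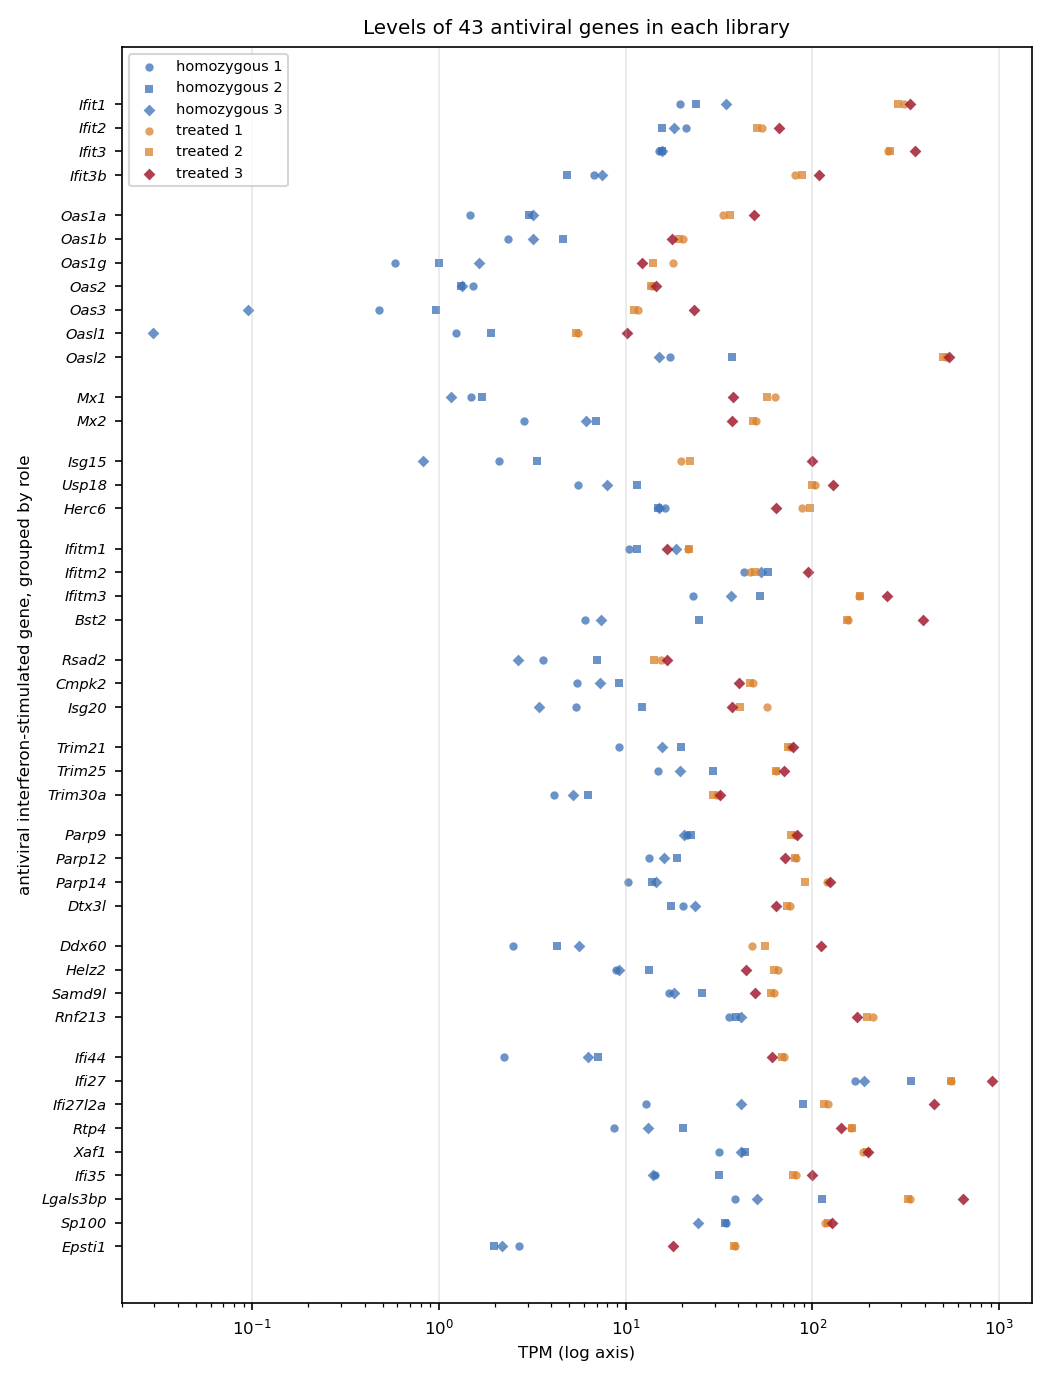
TPM (x axis, log scale) of each of the 43 genes (y axis, grouped by role) in 3 homozygous libraries (blue) and 3 treated libraries (orange for 1 and 2, red for 3). Treated points lie to the right of all homozygous points for 41 genes, the exceptions being Ifitm1 and Ifitm2.

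The count of rising genes changed with the libraries in the fit. It was 11 without homozygous replicate 1, 24 without homozygous replicate 2, 9 without homozygous replicate 3 and 18 with treated library 3 as the only treated sample, while 0 of the 43 fell in any of these fits. Calls became fewer over all 17102 tested genes too, from 589 higher to 62, 158, 67 and 180 in the same fits. Ifit1, Ifit3, Ifit3b, Oasl2, Mx1, Usp18, Parp14, Rnf213 and Xaf1 passed in each of the fits that left out 1 homozygous replicate or treated replicate 3, and the other 28 failed in at least 1 of them. Leaving out treated replicate 1 or 2, near copies merged into 1 sample, tests little and lost 0 calls. Under median-of-ratios scaling, which moved the median of all genes from 0.20 to 0.02, 35 of the 43 rose, and over all genes the split went from 589 higher and 165 lower to 405 and 247. Relative to the median of all genes, the median of the 43 was 2.35 higher on the log2 scale.

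**Figure D2:**
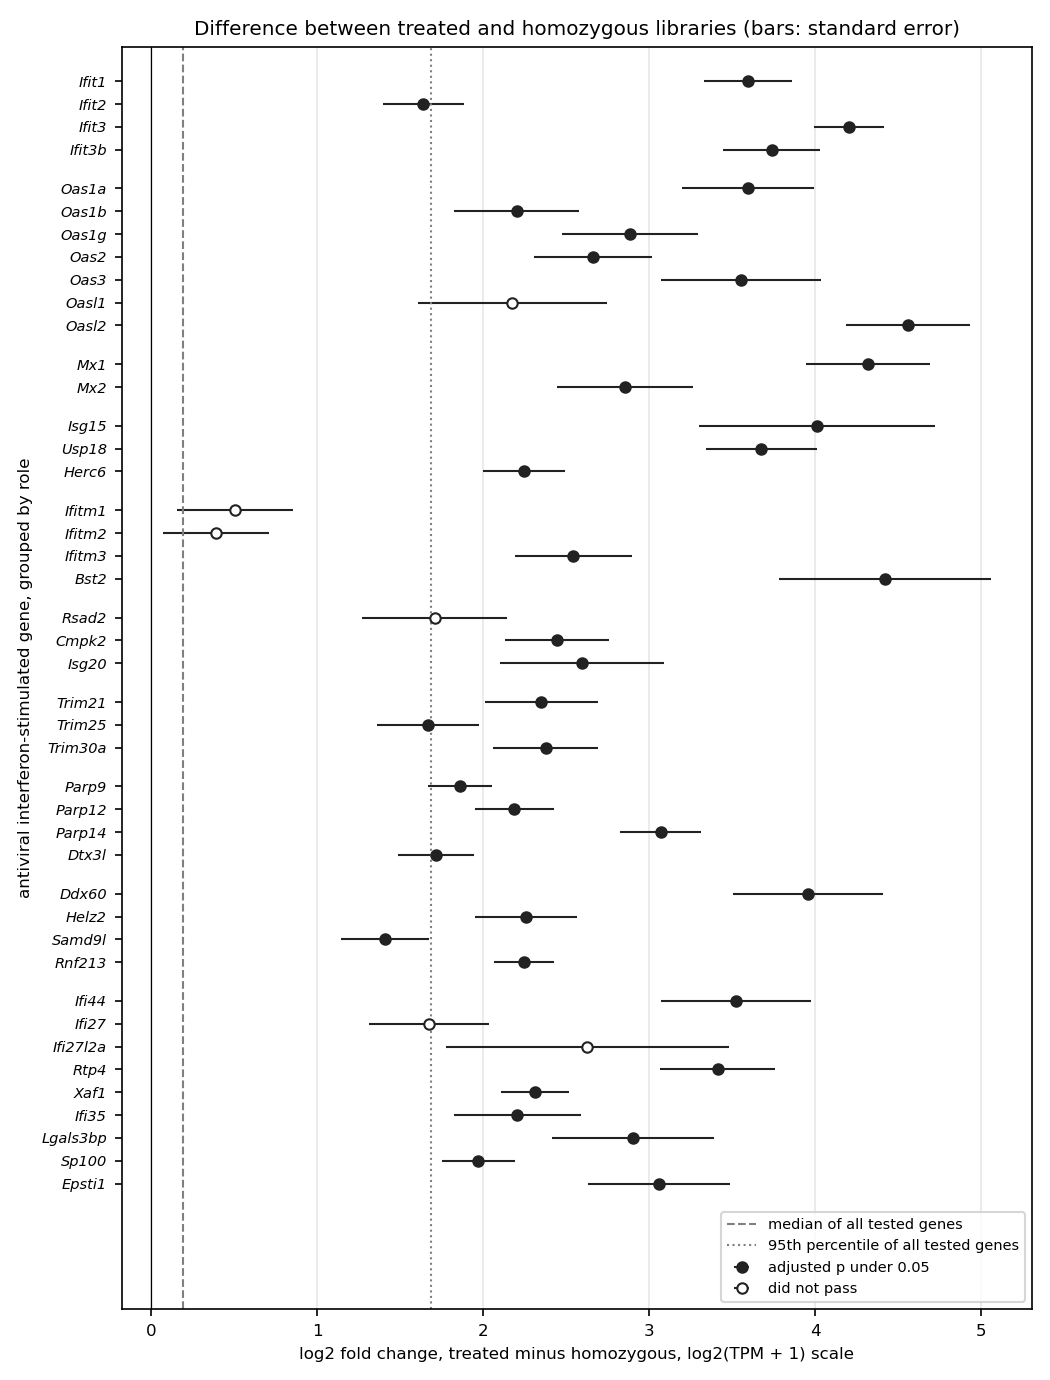
Log2 fold change of treated against homozygous libraries on the log2(TPM + 1) scale (x axis) with its standard error, for each of the 43 genes (y axis). The 37 genes that passed are filled, the 6 that did not are open, and the lines mark 0, the median of all tested genes (0.20) and their 95th percentile (1.69).

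The IFIT genes encode proteins with tetratricopeptide repeats, of which IFIT1 binds RNA lacking the host's cap methylation. All 4 rose. Ifit3 was at 15.2, 15.6 and 15.6 TPM in the homozygous libraries and at 255, 259 and 356 TPM in the treated libraries. Ifit1 was at 19.4, 23.9 and 34.4 TPM in the homozygous libraries and at 308, 288 and 335 TPM in the treated libraries. Both genes had widely separated groups, with log2 fold changes of 4.20 (SE 0.21) for Ifit3 and 3.60 (SE 0.26) for Ifit1 (limma adjusted p = 0.00107 and 0.00325). Ifit3b followed with a log2 fold change of 3.74, and its means were 6.36 ± 1.35 TPM (SD, n = 3) in homozygous and 96.9 ± 17.4 TPM (SD, n = 2) in treated libraries. Ifit2, the IFIT gene with no motif in its windows, had the smallest log2 fold change of the 4, at 1.64 (limma adjusted p = 0.0247). Its libraries had 15.6 to 21.1 TPM when homozygous and 50.3 to 66.5 TPM when treated. Ifit3 and Ifit3b share 61.8% and 55.3% of their transcript 31-mers with other genes, mostly each other, in the GENCODE M21 transcripts, so their separate levels are uncertain.

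The OAS genes encode synthetases of 2'-5' oligoadenylate, the messenger that activates RNase L, and OAS-like proteins. Of 7 members 6 rose. Oasl2 was at 17.3, 37.1 and 15.1 TPM in the homozygous libraries and at 522, 503 and 541 TPM in the treated libraries. It had the largest log2 fold change among the 43, 4.56 (SE 0.37, limma adjusted p = 0.00486), and went from rank 10 to rank 2 of the 43 genes by mean TPM. Oas1a was at 1.48, 3.05 and 3.19 TPM in the homozygous libraries and at 33.1, 36.1 and 48.6 TPM in the treated libraries (log2 fold change 3.60, limma adjusted p = 0.0113). Oas3, testable only through the treated libraries, and Oas1g were near or under 1 TPM in homozygous libraries, at 0.514 ± 0.438 and 1.07 ± 0.531 TPM (SD, n = 3), and reached 17.2 ± 8.34 and 14.1 ± 2.56 TPM (SD, n = 2). Oas2 and Oas1b, at 1.31 to 4.597 TPM in homozygous libraries, had log2 fold changes of 2.66 and 2.20. Oasl1, whose protein is known to restrain translation of Irf7, was the member that did not pass. It was at 1.23, 1.90 and 0.0296 TPM in the homozygous libraries and at 5.54, 5.41 and 10.2 TPM in the treated libraries (log2 fold change 2.18, limma adjusted p = 0.0759). Its groups did not overlap, but the homozygous values spread from near 0 upward. Oas1a and Oas1g share 68.8% and 55.1% of their 31-mers with other genes and are uncertain as single genes.

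Mx1 and Mx2 encode dynamin-like GTPases that trap viral nucleoproteins. Both rose. Mx1 was at 1.49, 1.70 and 1.16 TPM in the homozygous libraries and at 63.5, 57.4 and 37.6 TPM in the treated libraries. Its mean level was 33.8 times higher in treated libraries, the highest ratio of means among the 43 (log2 fold change 4.32, limma adjusted p = 0.00546). Mx2 was at 2.85, 6.97 and 6.16 TPM in the homozygous libraries and at 50.01, 48.2 and 37.2 TPM in the treated libraries (log2 fold change 2.86, limma adjusted p = 0.0224). For both genes treated library 3 was the lowest of the treated libraries.

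ISG15 is a ubiquitin-like protein, USP18 removes it and dampens receptor signalling, and HERC6 is its mouse ligase. All 3 genes rose. Usp18 was at 5.55, 11.5 and 7.93 TPM in the homozygous libraries and at 103, 99.8 and 129 TPM in the treated libraries (log2 fold change 3.68, limma adjusted p = 0.00608). Herc6 was at 16.3, 14.9 and 15.02 TPM in the homozygous libraries and at 88.2, 96.7 and 63.8 TPM in the treated libraries (log2 fold change 2.25, limma adjusted p = 0.0112). Isg15 itself was at 2.09, 3.37 and 0.827 TPM in the homozygous libraries and at 19.8, 22.2 and 99.1 TPM in the treated libraries. The groups were apart, but treated library 3 had 4.71 times the mean of the other two, the widest such gap of the 43 genes. Its log2 fold change of 4.01 has an SE of 0.71 (limma adjusted p = 0.0363), and it was 2.92 at the lowest over the alternatives.

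The membrane proteins split. IFITM proteins block fusion of enveloped viruses and BST2 (tetherin) holds budding virus on the cell surface. Bst2 was at 6.07, 24.7 and 7.42 TPM in the homozygous libraries and at 155, 154 and 391 TPM in the treated libraries (log2 fold change 4.42, limma adjusted p = 0.0225). Ifitm3 was at 23.1, 52.5 and 36.8 TPM in the homozygous libraries and at 178, 181 and 251 TPM in the treated libraries (log2 fold change 2.54, limma adjusted p = 0.0211). In both genes the homozygous library 2 was the highest of its group and treated library 3 the highest of all. Ifitm1 did not pass, at 10.4, 11.5 and 18.7 TPM in the homozygous libraries and 21.7, 21.9 and 16.6 TPM in the treated libraries (log2 fold change 0.50, limma adjusted p = 0.395). Ifitm2 did not pass either, at 43.3, 58.0 and 53.3 TPM in the homozygous libraries and 46.1, 49.0 and 95.2 TPM in the treated libraries (log2 fold change 0.39, limma adjusted p = 0.472). These were the 2 genes of the 43 whose groups overlapped. Without treated replicate 3 the value of Ifitm2 was -0.10. Ifitm2 shares 55.5% of its 31-mers with other genes, so its level is uncertain. That the difference differs between IFITM genes was not tested.

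RSAD2 (viperin) makes a chain-terminating nucleotide, CMPK2 is a nucleotide kinase encoded beside it, and ISG20 is an exonuclease. Of the 3, Cmpk2 and Isg20 rose. Cmpk2 was at 5.505, 9.27 and 7.28 TPM in the homozygous libraries and at 48.1, 46.6 and 40.5 TPM in the treated libraries (log2 fold change 2.45, limma adjusted p = 0.018). Isg20 was at 5.43, 12.3 and 3.45 TPM in the homozygous libraries and at 57.0, 41.0 and 37.2 TPM in the treated libraries (log2 fold change 2.59, limma adjusted p = 0.0419). With a pseudocount of 0.1 TPM Isg20 lost its call. Rsad2 was at 3.59, 7.005 and 2.66 TPM in the homozygous libraries and at 15.4, 14.2 and 16.7 TPM in the treated libraries. Its groups did not overlap, but the difference missed the threshold (log2 fold change 1.71, limma adjusted p = 0.0732).

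TRIM21 is a cytosolic antibody receptor, TRIM25 a ubiquitin ligase acting on the RIG-I pathway, and Trim30a a mouse TRIM gene. All 3 rose. Trim30a was at 4.16, 6.31 and 5.23 TPM in the homozygous libraries and at 30.7, 29.3 and 32.2 TPM in the treated libraries (log2 fold change 2.38, limma adjusted p = 0.0196). Trim21 was at 9.19, 19.9 and 15.6 TPM in the homozygous libraries and at 75.7, 73.7 and 78.8 TPM in the treated libraries (log2 fold change 2.35, limma adjusted p = 0.0224). The treated values of both genes lay close together in all 3 libraries. Trim25 had a mean of 21.2 ± 7.30 TPM (SD, n = 3) in homozygous and 67.4 ± 4.90 TPM (SD, n = 2) in treated libraries, with limma adjusted p = 0.04 at a log2 fold change of 1.67, and lost its call under median-of-ratios scaling.

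PARP9, PARP12 and PARP14 belong to the ADP-ribosyltransferase family, and DTX3L is the ubiquitin ligase that pairs with PARP9. All 4 genes rose. Parp14 was at 10.3, 13.8 and 14.6 TPM in the homozygous libraries and at 119.9, 91.8 and 124 TPM in the treated libraries (log2 fold change 3.07, limma adjusted p = 0.00433). Parp9 was at 21.4, 22.3 and 20.6 TPM in the homozygous libraries and at 80.4, 77.0 and 82.4 TPM in the treated libraries (log2 fold change 1.86, limma adjusted p = 0.00938). The partners Parp9 and Dtx3l had similar levels, with Dtx3l at 20.5 ± 3.08 TPM (SD, n = 3) and 69.4 ± 7.39 TPM (SD, n = 2) and a log2 fold change of 1.72. Parp12 had a log2 fold change of 2.19.

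Among large and helicase-type proteins, all 4 genes rose. Ddx60 encodes a helicase linked to RNA sensing. It was at 2.50, 4.29 and 5.60 TPM in the homozygous libraries and at 47.6, 55.6 and 112 TPM in the treated libraries (log2 fold change 3.96, limma adjusted p = 0.0125). Rnf213, the gene of a giant ubiquitin ligase, was at 35.8, 39.0 and 41.6 TPM in the homozygous libraries and at 211, 196 and 173 TPM in the treated libraries. Its groups were narrow and far apart (log2 fold change 2.25, SE 0.18, limma adjusted p = 0.00452). Helz2, a helicase gene, had a log2 fold change of 2.26. Samd9l, whose protein restrains translation, had one of 1.41, the smallest among the 37 genes that rose, and lost its call under median-of-ratios scaling.

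Of the 9 remaining genes 7 rose. Xaf1, the gene of an apoptosis-linked zinc finger protein, was at 31.5, 43.6 and 41.7 TPM in the homozygous libraries and at 186, 197 and 199 TPM in the treated libraries (log2 fold change 2.31, limma adjusted p = 0.00581). Rtp4 was at 8.69, 20.3 and 13.2 TPM in the homozygous libraries and at 162, 162 and 142 TPM in the treated libraries (log2 fold change 3.41, limma adjusted p = 0.00885). Ifi44, Epsti1 and Lgals3bp, the last encoding a secreted galectin-binding glycoprotein, had log2 fold changes of 3.52, 3.06 and 2.90, and Ifi35 and Sp100, the gene of a nuclear body protein, 2.21 and 1.97. Ifi27 and Ifi27l2a, small hydrophobic proteins of 1 family, did not pass. Ifi27 had the highest mean of the 43 genes in both groups, at 170.0, 339 and 189 TPM in the homozygous libraries and 556, 552 and 911 TPM in the treated libraries (log2 fold change 1.67, limma adjusted p = 0.0541). Ifi27l2a was at 12.8, 88.8 and 41.5 TPM in the homozygous libraries and at 121, 115 and 450.3 TPM in the treated libraries (log2 fold change 2.63, limma adjusted p = 0.117). Neither gene's groups overlapped, and Ifi27l2a had the largest SE of the 43, 0.85.

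Members with the response element in their promoter had a median log2 fold change of 3.57 (14 genes, 12 of them higher), and the 19 members whose promoter held no match had 2.25 (17 higher). The ranges overlapped widely, 0.39 to 4.42 with a match and 0.50 to 4.56 without, and Oasl2 was among those without. Over all tested genes with a promoter, 15.3% of the 471 with the motif and 3.05% of the 12050 without it were called higher. These are descriptions without a test, and part of the 43 genes is in them.

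The levels also differed within each group. In the homozygous group library 2 was the highest for 28 of the 43 genes, library 3 for 10 and library 1 for 5. Lgals3bp, for example, was at 38.8, 112 and 50.4 TPM. The 14 macrophage genes summed to 257 TPM in that library and to 165 and 154 TPM in homozygous libraries 1 and 3, and 9 neutrophil genes to 614 TPM against 149.98 and 55.4 TPM. The part of these cells in the levels of the 43 genes was not tested. The order of the 43 genes by level was nearly the same in the homozygous libraries, with Spearman's rho of 0.906 to 0.952 over the 43 genes, and differed more between homozygous and treated libraries, with 0.666 to 0.784. The genes are not independent points, and all libraries share the gene lengths used for TPM.

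Treated library 3 was also compared with the near-identical pair. It was above both other treated libraries for 27 of the 43 genes and below both for 16. It exceeded their mean by over 1.5 times for 9 genes, Isg15 (4.71), Ifi27l2a (3.81), Bst2 (2.53), Ddx60 (2.16), Oas3 (2.04), Ifitm2 (2.00), Lgals3bp (1.95), Oasl1 (1.86) and Ifi27 (1.64). It was lower by more than that for Mx1 (0.62 times) and Epsti1 (0.47 times). The 8 forebrain neuron genes summed to 1340 and 1320 TPM in treated libraries 1 and 2, to 194 TPM in treated library 3 and to 174 to 214 TPM in the homozygous libraries. Camk2a, a kinase gene of forebrain neurons, had 745, 722 and 8.13 TPM in the treated libraries against 0.471 to 0.554 TPM in the homozygous ones. With treated library 3 as the only treated sample, the median log2 fold change of the 43 genes was 2.53, as against 2.51 without it.

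**Figure D3:**
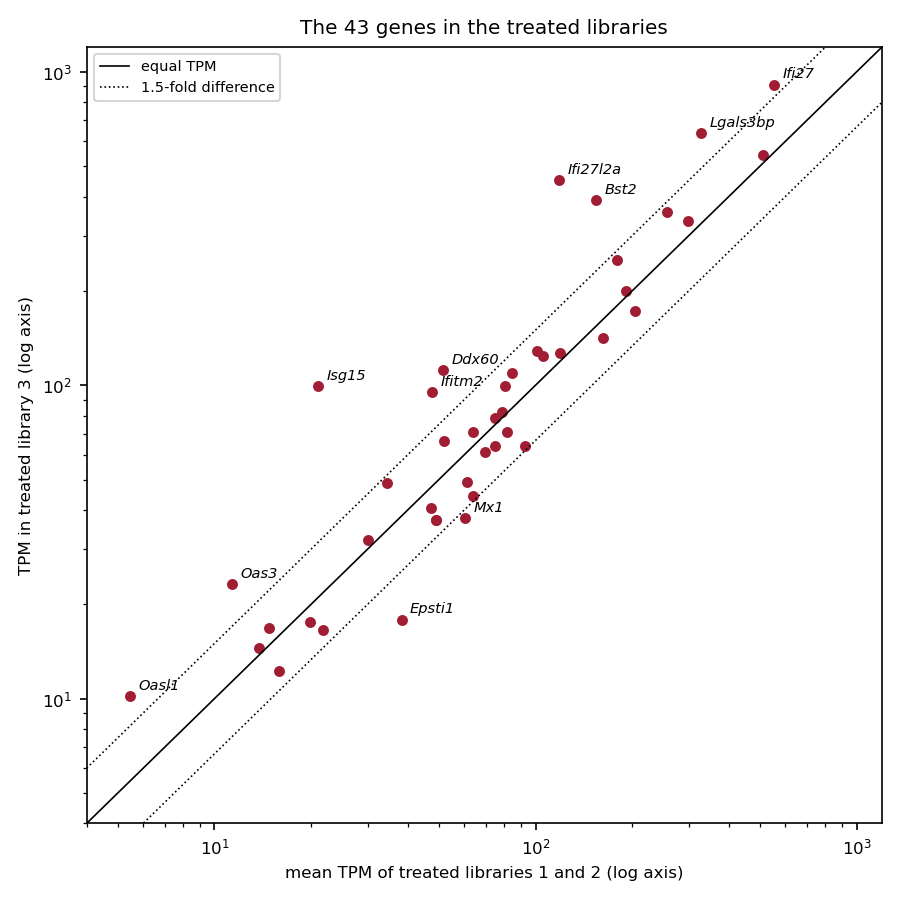
TPM of the 43 genes in treated library 3 (y axis, log scale) against the mean of treated libraries 1 and 2 (x axis, log scale), 1 point per gene, with lines of equality and of a 1.5-fold difference. The 9 genes above the band, led by Isg15, and the 2 below it, Mx1 and Epsti1, are named.

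Other genes of the pathway were taken from lists of ligands, receptors, signal transducers, negative regulators and nucleic acid sensors, chosen with earlier results of these data known. Of the 14 interferon genes 3 had values and 2 were tested. Ifng, the gene of interferon gamma, was listed at 0 in the 3 homozygous libraries and was at 6.94, 6.75 and 2.58 TPM in the treated libraries. It passed the filter only through the treated group, so its test is not given. Ifnk, an epithelial type I interferon, was at 4.59, 6.93 and 7.56 TPM in the homozygous libraries and at 9.43, 7.66 and 8.36 TPM in the treated libraries and did not pass (limma adjusted p = 0.536). The genes of interferon beta and of the alpha and lambda interferons in the list had no values, so they could not be assessed.

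The receptor genes did not pass. Of 6, limma called 0, with 1 at an unadjusted p under 0.05 and a median log2 fold change of 0.37. Ifnar2, with the highest mean of them, had 143, 134 and 147 TPM in the homozygous libraries and 97.1, 99.3 and 128 TPM in the treated libraries (log2 fold change -0.33, limma adjusted p = 0.306). Il10rb, second by mean in the homozygous libraries, had a log2 fold change of -0.09. The other type I receptor gene, Ifnar1, had 0.32, and the gamma receptor genes Ifngr1 and Ifngr2 had 0.81 and 0.41. Ifnlr1 had 0.85, the largest of the 6. Every treated library was above every homozygous library in 3 of the 6 and below in 1, against 28% and 14.8% of all tested genes.

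Of 9 genes in the list of signal transducers, 6 rose, with a median log2 fold change of 2.24. Over all tested genes 3.44% were called higher. Irf1, the gene of an interferon regulatory factor, was at 22.3, 31.6 and 26.4 TPM in the homozygous libraries and at 178, 234 and 231 TPM in the treated libraries (log2 fold change 2.99, SE 0.21, limma adjusted p = 0.00307). Irf9 was at 38.3, 48.1 and 47.5 TPM in the homozygous libraries and at 234, 246 and 224 TPM in the treated libraries (log2 fold change 2.36, limma adjusted p = 0.00422). The groups of both genes lay far apart. Stat2 (2.79), Irf7 (4.58), Irf8 (2.24) and Irf3 (1.34) rose as well. The kinase genes Jak1, Jak2 and Tyk2 did not pass, with 0.32, 0.04 and 1.05. Of 6 negative regulators Socs3, a suppressor of cytokine signalling, rose from 3.43, 3.49 and 3.81 TPM to 15.95, 14.4 and 15.1 TPM (log2 fold change 1.82, limma adjusted p = 0.0386). Of 14 tested sensors and adaptors 7 rose, with a median log2 fold change of 1.75. They were led in p by Zbp1 (5.89), Eif2ak2 (1.99) and Ifih1 (2.08). Zbp1 and Tlr9 passed the filter with the help of treated libraries. Of the other 12, at 1 TPM or more in every homozygous library, 6 rose. Zbp1, a sensor of left-handed nucleic acid, was at 0.562, 1.19 and 0.973 TPM in the homozygous libraries and at 109.9, 109 and 112 TPM in the treated libraries, close to absent in the first group and uniform in the second. Sting1 and Tlr9 had log2 fold changes of 1.63 and 2.12 and did not pass. Over these 5 lists 15 of 37 tested genes rose, against 3.44% of all tested genes. Ifng and Zbp1 are among the 15 but needed treated libraries to pass the filter. Of the 33 genes at 1 TPM or more in every homozygous library 13 rose, against 3.05% of all genes at that level. The count of 15 became 5, 8 and 6 without homozygous replicates 1, 2 and 3.

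**Figure D4:**
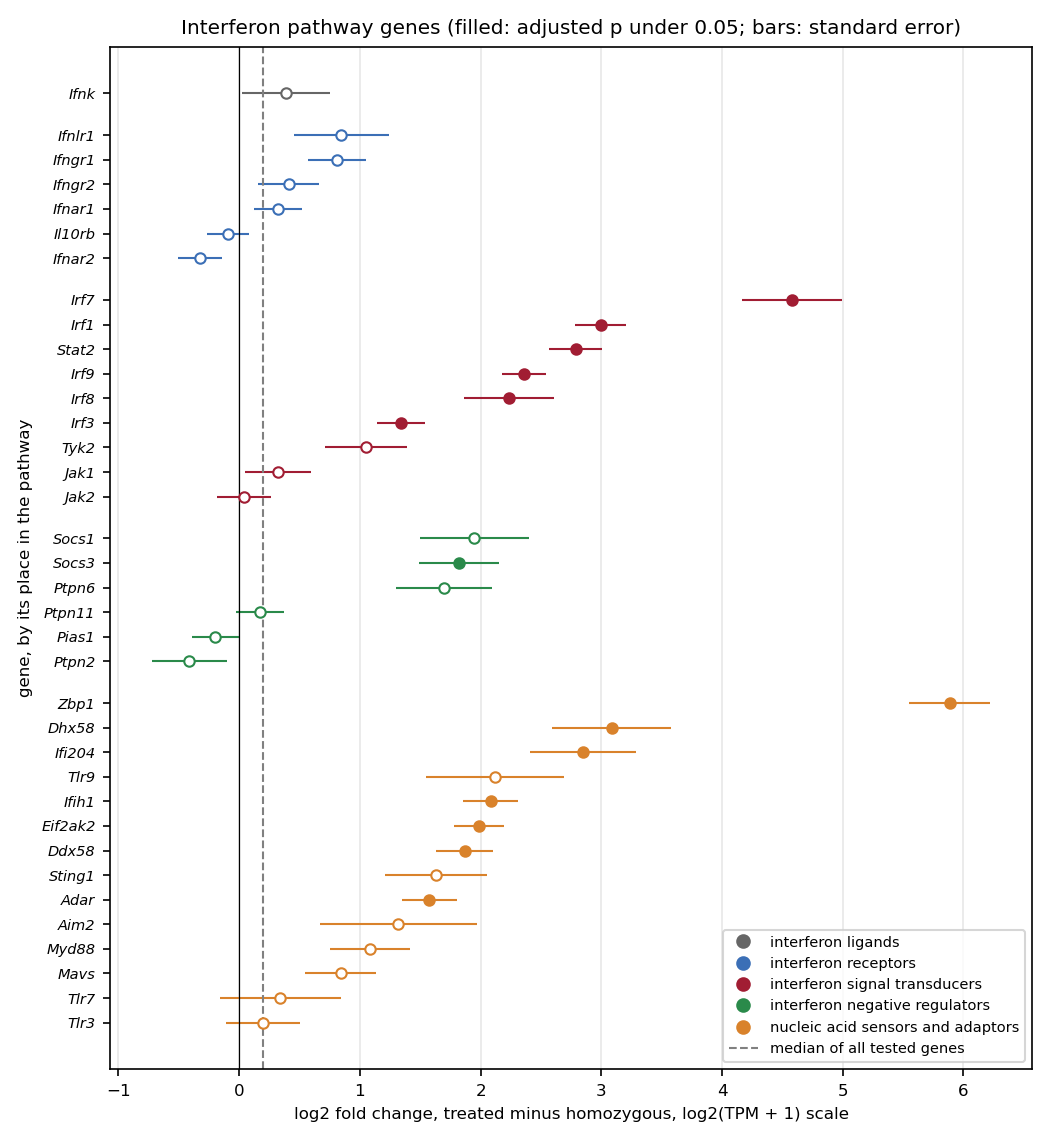
Log2 fold change of treated against homozygous libraries on the log2(TPM + 1) scale (x axis) with its standard error for the tested pathway genes (y axis) other than Ifng, which is listed at 0 in the homozygous libraries, coloured by list and filled where they passed. The 6 receptor genes are all open, while 6 of the 9 transducers are filled.

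Lists of immune cell genes were compared in the same libraries, and they did not all move with the 43 genes. In bulk RNA, fewer cells of a type and less RNA per cell cannot be told apart. Of 14 macrophage genes, all at 1 TPM or more in every homozygous library, 8 rose, against 3.05% of all genes at that level. Their sum was 154 to 257 TPM in homozygous and 831 to 982 TPM in treated libraries. The 15 genes of T and NK cells summed to 2.41 to 6.35 TPM in homozygous and 135 to 184 TPM in treated libraries. All 11 of them that were tested needed treated libraries to pass the filter, and 7 were under 1 TPM in every homozygous library, so their calls were largely fixed by the filter and are not counted. Cd3d, Gzma and Gzmb were listed at 0 in the 3 homozygous libraries. The 9 neutrophil genes summed to 55.4 to 614 and 194 to 239 TPM, and limma called 0 of them, with 2 at an unadjusted p under 0.05. B cell genes summed to 36.0 to 72.2 and 88.8 to 113 TPM, with 0 of 5 tested genes past limma and 2 at an unadjusted p under 0.05. Endothelial genes summed to 272 to 285 and 306 to 345 TPM, with 0 of 7 past limma and 2 at an unadjusted p under 0.05. Of 6 genes of plasmacytoid dendritic cells 1 rose, which was Bst2, itself among the 43, while Siglech was at 2.45 to 5.54 and 1.86 to 14.2 TPM. Genes of the spiral ligament and mesenchyme moved the other way in sum, from 10336 to 14142 TPM in homozygous to 6246 to 7057 TPM in treated libraries, with no overlap. Coch and Otos had the highest homozygous means of these 8 genes, 7149 and 2995 TPM, and weigh most in the sum. Of the 8, limma called Otos, the gene of otospiralin, lower (log2 fold change -1.67, adjusted p = 0.0346) and 0 higher. Coch did not pass (log2 fold change -0.87, adjusted p = 0.165). The genes did not all move down, since 3 of the 8 had positive log2 fold changes that did not pass, Emilin2 (1.20), Tbx18 (0.64) and Pou3f4 (0.59). The part of these cells in the levels of the 43 genes was not tested.

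**Figure D5:**
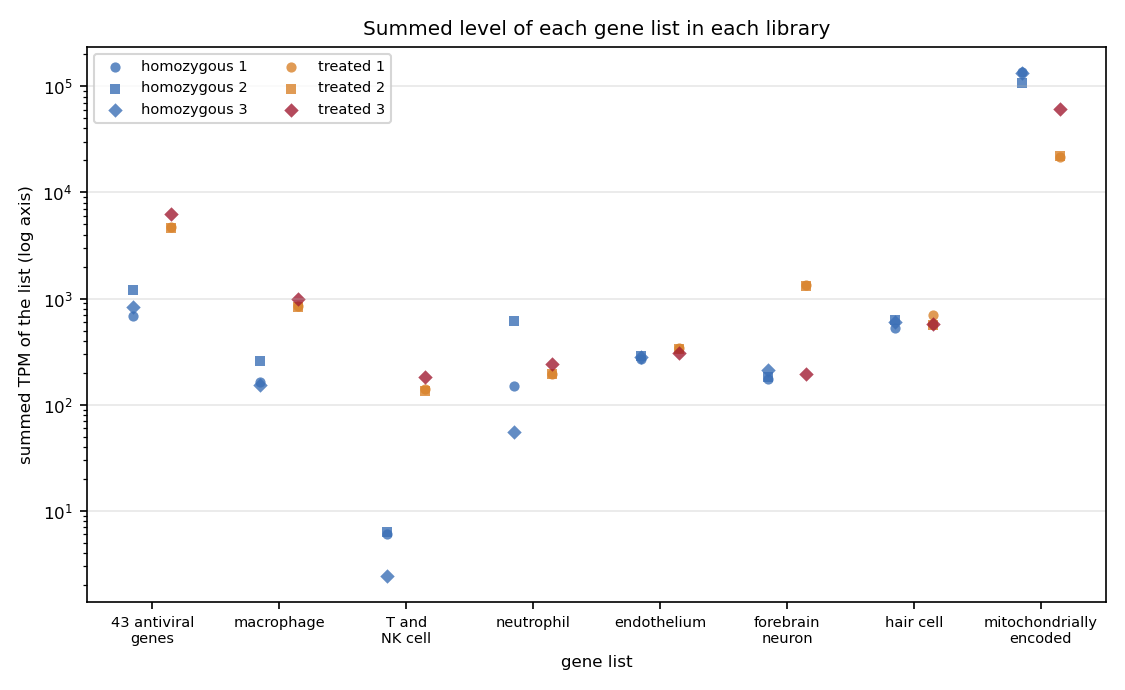
Summed TPM (y axis, log scale) of the 43 antiviral genes and of 7 other gene lists (x axis) in the homozygous (blue) and treated (orange and red) libraries. The antiviral, macrophage and T and NK cell sums are higher in all treated libraries. The endothelial sum is higher by a small margin, 306 to 345 against 272 to 285 TPM, with 0 of 7 genes past limma. The forebrain neuron sum is higher in treated libraries 1 and 2 alone, and the mitochondrial sum is lower in all treated libraries.

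The comparison of homozygous with wild-type cochleae, which asked what the allele itself changes, held 7 of the 43 genes. The other 36 have no value in that table, whose rows appear to have been chosen, since the smallest absolute log2 fold change among its 1348 tested genes was 0.24. Of the 7, Oas1a and Ifi27 were higher and Rnf213 lower in homozygous libraries, against 17.9% of all tested genes higher and 33.5% lower. A table chosen on these samples gives no independent evidence of direction, and these shares are its only background. Oas1a was at 0.318, 0.592 and 0.512 TPM in wild-type libraries and 1.46, 1.72 and 1.72 TPM in homozygous libraries (log2 fold change 0.84, limma adjusted p = 0.0296). Being under 1 TPM in every wild-type library, it could be tested only through the homozygous group and had to differ. Ifi27 was at 113, 111 and 103 TPM in wild-type libraries and 127, 247 and 149.8 TPM in homozygous libraries (log2 fold change 0.62, limma adjusted p = 0.0496). Rnf213 was at 54.6, 41.5 and 40.7 TPM in wild-type libraries and 27.1, 29.5 and 30.97 TPM in homozygous libraries (log2 fold change -0.62, limma adjusted p = 0.0294). In all 3 genes the groups did not overlap, which the filter fixed in advance for Oas1a, and they were close for Ifi27. Over all tested genes of that table, 31.5% had every homozygous library above and 45.6% every homozygous library below the wild-type libraries.

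Rsad2 and Samd9l missed the threshold with groups that did not overlap (log2 fold changes 0.79 and 0.51, limma adjusted p = 0.0516 and 0.0642). Ifi27l2a was at 15.7, 13.6 and 15.5 TPM in wild-type libraries and 10.7, 77.8 and 35.5 TPM in homozygous libraries, and Lgals3bp at 25.7 to 30.3 and 27.8 to 82.0 TPM. Both overlapped and did not pass (limma adjusted p = 0.113 and 0.123). For 5 of these genes, Rsad2, Samd9l, Ifi27, Ifi27l2a and Lgals3bp, homozygous library 2 was again the highest. Without homozygous replicate 2 the log2 fold change of Ifi27 was 0.34, and that of Ifi27l2a 0.38. Without any 1 of the wild-type replicates, or without homozygous replicate 1, Oas1a, Ifi27 and Rnf213 each lost their call, with adjusted p of 0.0503 to 0.109 over these fits, and Ifi27 also did without homozygous replicate 3 (adjusted p = 0.0556). Median-of-ratios scaling made Rsad2 and Samd9l pass as higher, which gave 4 higher and 1 lower, and over all genes of that table it turned 241 higher and 451 lower into 472 and 212.

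Both comparisons share the homozygous mice, whose deposited values differ between the tables. Oas1a in homozygous library 3 was at 1.72 TPM in the first table and 3.19 TPM in the second, and Rnf213 at 30.97 and 41.6 TPM. Side by side, Oas1a had log2 fold changes of 0.84 for homozygous against wild type and 3.60 for treated against homozygous, Ifi27 of 0.62 and 1.67, and Rnf213 of -0.62 and 2.25. Treated libraries were not tested against wild-type libraries.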

How the data were processed

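Values were the TPM deposited by the authors, in 1 table of wild-type and homozygous and 1 of homozygous and treated libraries. Per the submitters' processing notes kallisto 0.51.0 and DESeq (no version) were used, with build GRCm39. The labels' protocols give TRIzol RNA and stranded total RNA libraries. Groups came from sample titles.

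Repeated symbols were summed. Genes at 1 TPM or more in at least 3 libraries were tested with limma 3.58.1 (R 4.3.3) on log2(TPM + 1) with a mean-variance trend, two-sided, with Benjamini-Hochberg adjustment over all genes tested in a table and a threshold of 0.05. Fold changes on this scale understate changes of low genes. Tests stayed within a table. The scripts were tested on simulated data. The share of 31-mers in other genes' transcripts used GENCODE M21. The members, gene lists and the merging of treated libraries 1 and 2 were chosen with earlier results of these data known. The result of 1 gene of the pathway lists is not reported here, and it is left out of their counts. Values are given in each role group for the 2 smallest p-values and all members that did not pass, other members being added after their values were seen.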

Additional observations from a re-analysis of the deposited data

How the results depend on the processing

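In treated against homozygous libraries the count of 37 genes higher became 13 without a filter on low values, where more genes are tested, and 18 with treated library 3 alone, and ranged from 9 to 37 with 1 replicate left out. Over all genes 589 of 17102 were called higher, 127 of 25579 without the filter, 180 with treated library 3 alone and 62 to 2249 with 1 replicate left out. The count of 15 pathway genes higher became 7 and 9 in these fits and ranged from 5 to 18. In homozygous against wild type, the count of 2 higher was 4 under median-of-ratios scaling, 1 without a filter, 0 with a replicate block and 0 to 2 with 1 replicate left out, and the count of 1 lower was 0 to 1. The cause was not tested. The sign of 1 value for a single gene turned, that of Ifitm2, which ranged from -0.10 (without treated replicate 3) to 0.48 with 1 replicate left out. Same-numbered libraries did not deviate together (r of -0.15 to 0.03 for homozygous and treated, -0.14 to 0.05 for wild type and homozygous). Libraries of different number had r of -0.13 to 0.15 and -0.14 to 0.16. With 3 libraries per group, and treated libraries 1 and 2 near copies, these values cannot decide whether the numbers pair them. The replicate block, run with 3 treated samples, gave 37 of the 43 genes and 18 pathway genes higher. A pseudocount of 0.1 TPM gave 36, TPM without mitochondrial genes 37 and 3 treated samples 40. The depth is unknown, and 2 treated samples limit the precision.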
